A study of Mus musculus with 8 samples.

Results

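Cell junction genes of mouse tongue epithelium were compared between mice with and without doxycycline-induced Bmi-1. The members are the genes of the desmosome, adherens, tight and gap junction families, taken by gene symbol: desmogleins and desmocollins, plakophilins, cadherins other than the endothelial Cdh5, nectins, claudins, the Tjp scaffolds, connexins of the Gja, Gjb and Gjc groups, and 11 further named genes such as Dsp, Jup, Ocln and Epcam. The rule uses no measured value, and 66 of the 15540 genes of the table are members. The same rule matches 102 protein-coding genes of GENCODE M21, and the other 36, among them Cldn3, Cldn7 and Dsg1c, had no value to analyse here.

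RNA came from tongue epithelium of C57BL/6 mice that all carried K14-rtTA and TRE-FLBmi-1, together called KrTB. The K14 promoter, active in basal keratinocytes, makes a transactivator that switches on the Bmi-1 construct when doxycycline is given, whose product belongs to the Polycomb group of chromatin repressors. The groups were given as biological replicates. The KrTB group (4 libraries) received water, and the KrTB+DOX group (4 libraries) received water with doxycycline at 2 mg/mL. Both groups carry the transgenes and no group with doxycycline alone was analysed here, so effects of the drug and of the construct cannot be told apart. The sources used here do not state age, sex or length of treatment.

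The values are those of 1 comparison, made by the authors with limma, a linear model with moderated errors. Each gene has a log2 fold change, a mean over all libraries in log2 CPM (reads of a gene scaled to a common library total, on the log2 scale), a p-value and its value adjusted by the Benjamini-Hochberg method. Without values per library, the overlap of the groups cannot be shown and the depth is unknown. The table does not state its sign. It was read from Bmi1, whose log2 fold change was 5.42 (SE 0.10, adjusted p = 4.46e-09) per the authors' deposited table, as higher in KrTB+DOX. "Rose" and "fell" are used below for an adjusted p under 0.05, and SE is the standard error on the log2 scale. In bulk tissue, fewer cells of a type and less RNA per cell cannot be told apart.

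Keratinocytes hold together through junctions of several kinds. Desmosomes join the keratin filaments of neighbouring cells: desmogleins and desmocollins span the gap, and plakoglobin (Jup), plakophilins and desmoplakin (Dsp) tie them to keratin. Adherens junctions link actin through classical cadherins, nectins and catenins, tight junctions of claudins and occludin seal the space between cells, and connexins form the channels of gap junctions. In stratified epithelia such as the tongue, the cadherins of the desmosome and the classical cadherins change with the layer, with desmoglein 3, desmocollin 3 and P-cadherin (Cdh3) typical of lower layers and desmoglein 1 and desmocollin 1 of upper ones.

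A small set of junction genes moved, in both directions. Of the 66 members, 5 rose and 4 fell, so 13.6% were called, against 8.13% of all genes of the table (3.82% higher and 4.31% lower). P-cadherin Cdh3, cadherin 24 (Cdh24), desmoglein 2 (Dsg2), Epcam and Marveld3 rose, by 1.55-fold to 2.03-fold. Desmocollin 2 (Dsc2), the scaffold Tjp3 and the cadherins Cdh4 and Cdh8 fell, by 0.58 to 2.92 on the log2 scale. The median log2 fold change was 0.017 over members and -0.0060 over all genes, and the median size of change, sign left out, was 0.25 and 0.16. At an unadjusted p under 0.05, 20 members (30.3%) stood apart, 11 higher and 9 lower, beside 25.2% of all genes.

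**Figure D1:**
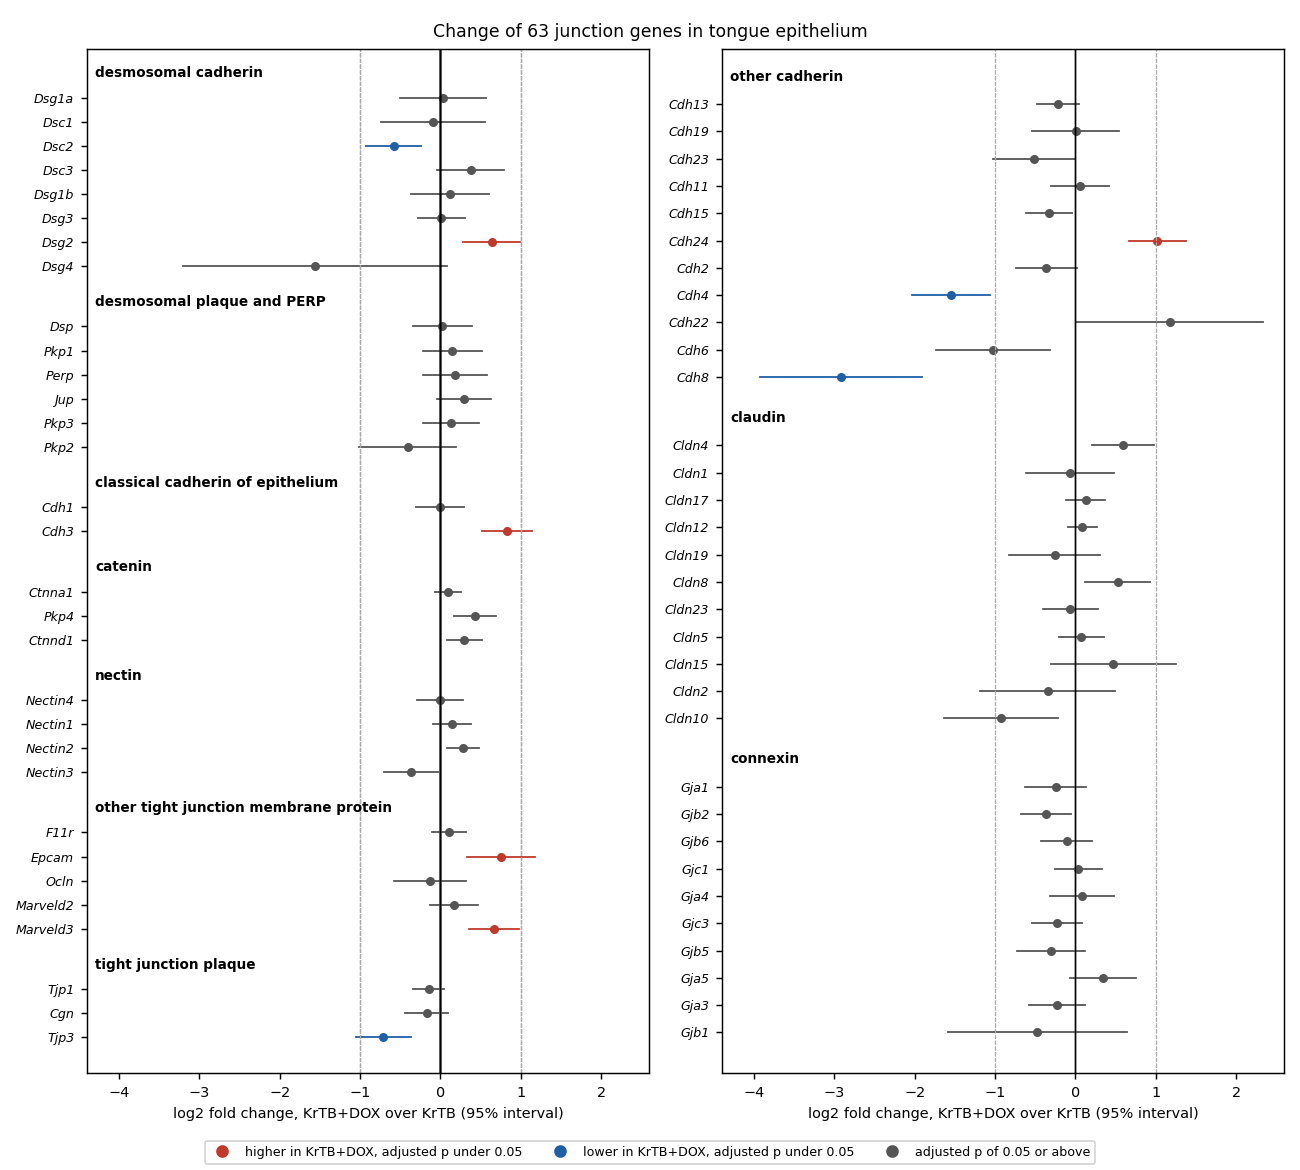
Log2 fold change of 63 of the 66 members (KrTB+DOX over KrTB, point) with its 95% interval (line), in classes and ordered by mean expression within each; dashed lines mark a 2-fold change either way. The 5 red genes rose and the 4 blue genes fell, while Dsp, Cdh1 and the 10 connexins plotted are grey.

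Called members lay at low, middle and high mean expression. Of the 17 members averaging at least 7 log2 CPM, 1 was called (Dsc2), or 5.88%, beside 7.96% of all genes at that level. Of the 13 members averaging under 2 log2 CPM, 4 were called (Cdh24, Marveld3, Cdh4 and Cdh8), or 30.8%, beside 6.52% of all genes there. The other called members, Tjp3 (3.84), Dsg2 (3.99), Cdh3 (4.27) and Epcam (4.32), averaged near the member median of 4.20 log2 CPM. These bounds were picked after the values were seen. For 51 of the 66 members (77.3%) the 95% interval lay within a 2-fold change either way, as it did for 84.7% of all genes, and this held for all 17 of the highly expressed members.

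**Figure D2:**
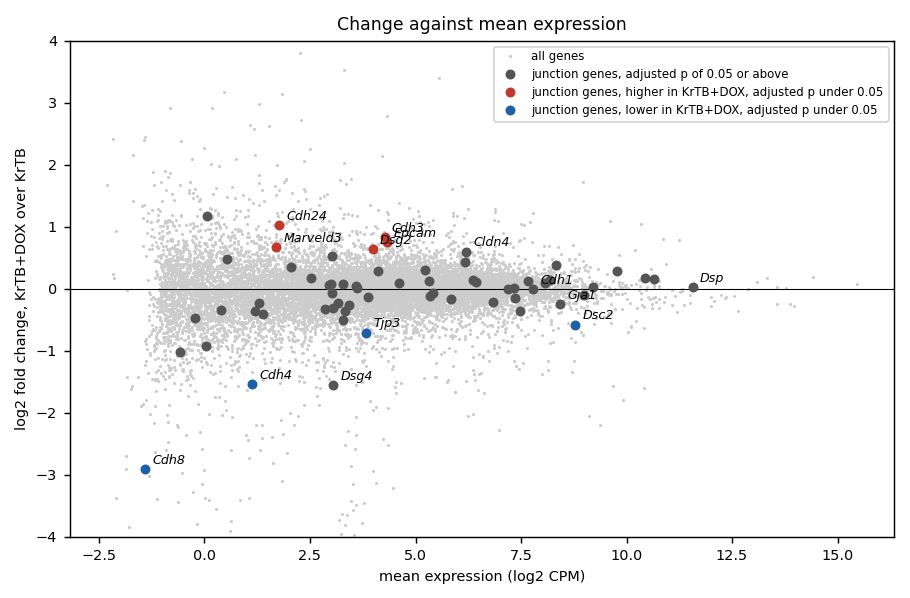
Log2 fold change (vertical axis, KrTB+DOX over KrTB) against mean expression in log2 CPM (horizontal axis) for all genes (light grey) and 63 of the 66 junction genes (large points); 16 genes lie beyond the plotted range of 4 on the log2 scale. Abundant members such as Dsp stay close to 0, and Cdh4, Cdh8, Cdh24 and Marveld3 lie on the left, at low expression.

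The 5' flanking sequence is shown for called genes, so that letters known as binding sites of junction gene regulators can be read beside the direction of change. The 250 bases before the annotated start were taken from RefSeq on GRCm38.p6. Of the 9 called members 4 were matched by symbol, and Cdh3, Cdh4, Marveld3, Dsc2 and Dsg2 are named only. Capitals mark CACCTG, the E-box that Snail and Zeb repressors are known to bind, on either strand (CAGGTG on the other strand).
Epcam, higher, chr17:87635729-87635978, plus strand: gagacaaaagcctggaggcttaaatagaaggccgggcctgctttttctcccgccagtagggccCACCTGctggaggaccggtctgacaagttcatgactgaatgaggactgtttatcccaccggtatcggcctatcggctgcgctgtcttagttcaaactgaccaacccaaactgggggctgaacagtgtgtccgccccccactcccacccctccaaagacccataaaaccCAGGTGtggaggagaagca
Cdh24, higher, chr14:54641365-54641614, minus strand: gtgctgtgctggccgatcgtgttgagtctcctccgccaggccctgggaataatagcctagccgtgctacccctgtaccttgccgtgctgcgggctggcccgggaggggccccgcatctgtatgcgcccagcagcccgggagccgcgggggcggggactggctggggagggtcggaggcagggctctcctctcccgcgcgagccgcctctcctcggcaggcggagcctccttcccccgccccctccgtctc
Tjp3, lower, chr10:81291582-81291831, minus strand: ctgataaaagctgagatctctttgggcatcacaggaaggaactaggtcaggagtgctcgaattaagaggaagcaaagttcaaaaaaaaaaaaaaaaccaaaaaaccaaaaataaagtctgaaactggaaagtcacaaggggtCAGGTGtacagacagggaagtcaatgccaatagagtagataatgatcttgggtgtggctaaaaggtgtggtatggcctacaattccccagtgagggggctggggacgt
Cdh8, lower, chr8:99416472-99416721, minus strand: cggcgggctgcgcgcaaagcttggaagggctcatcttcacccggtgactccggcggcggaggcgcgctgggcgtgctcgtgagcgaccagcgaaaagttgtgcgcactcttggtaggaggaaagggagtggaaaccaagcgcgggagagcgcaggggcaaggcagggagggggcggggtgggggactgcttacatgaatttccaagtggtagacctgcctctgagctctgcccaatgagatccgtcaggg
Epcam holds the E-box at 2 places, beginning 187 and 19 bases before its start, and Tjp3 holds it at 1 place, 108 bases before. Cdh24 and Cdh8 hold none in this window. Of all 32851 such windows in the RefSeq table, 17.2% hold CACCTG on either strand. AACNNGTT, the core of the site of grainyhead-like factors, reads the same on both strands and is in none of these 4 windows and in 3.64% of all of them. A match is only a run of letters, and Tjp3 has another annotated start, whose window is not shown.

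Among the desmosomal cadherins, Dsg2 rose and Dsc2 fell, and the other 6 did not pass. Dsg2, a desmoglein also found in simple epithelia, had a log2 fold change of 0.64 (SE 0.16, 95% interval 0.29 to 0.99, adjusted p = 0.0372) per the authors' deposited table. With the log2 fold change split evenly around the overall mean, which is approximate because the weights of the fit are unknown, it stood near 12.7 CPM in KrTB and 19.8 CPM in KrTB+DOX. Dsc2, the desmocollin of widest tissue range, fell by 0.58 (SE 0.15, 95% interval -0.93 to -0.24, adjusted p = 0.0484) per the authors' deposited table, from near 541 to near 361 CPM on the same reckoning. Dsc2 was the called member closest to the threshold, with Pkp4 (adjusted p = 0.0532) just outside it.

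The 6 desmosomal cadherins that did not pass include Dsg1a and Dsc1, which had the highest means of the class. Dsg1a (log2 fold change 0.03, SE 0.24), Dsc1 (-0.10, SE 0.29) and Dsg1b (0.12, SE 0.22), the cadherins of upper layers, had wide intervals per the authors' deposited table, with Dsc1 from -0.75 to 0.55. Dsg3, the target of pemphigus vulgaris antibodies, was more precise at 0.01 (SE 0.13, 95% interval -0.28 to 0.30) per the authors' deposited table. Dsc3, of lower layers, stood at 0.38 (SE 0.19, adjusted p = 0.236), and Dsg4, known from the hair shaft, at -1.56 with an interval from -3.21 to 0.09 (adjusted p = 0.219) per the authors' deposited table. Dsg1a and Dsg1b are nearly the same in sequence, which leaves both values uncertain, as no source used here says how reads that match both were counted.

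The 8 desmosomal cadherins are neighbours in 1 cluster on chromosome 18 (GRCm38), which starts at Dsc3 (19960930) and ends at Dsg2 (20604521). Within it Dsc2 lies 28281 bp from Dsc3 (0.38) and 24629 bp from Dsc1 (-0.10), and Dsg2 lies 10614 bp from Dsg3 (0.01). The called genes were therefore each next to members that did not pass. Differences between genes could not be tested, since that needs values per library.

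None of the 6 genes for plaque proteins and Perp passed the test by limma, and none did so at an unadjusted p under 0.05. Of all genes 8.13% and 25.2% did so in turn. Desmoplakin Dsp, which anchors keratin filaments, had the highest mean of all members (11.57 log2 CPM) and a log2 fold change of 0.02 (SE 0.17, 95% interval -0.35 to 0.40) per the authors' deposited table. Pkp1 (0.15, SE 0.16), Pkp3 (0.13, SE 0.16) and Perp, a p53 and p63 target of desmosomes (0.18, SE 0.18), lay slightly above 0 per the authors' deposited table. Plakoglobin Jup, shared by desmosomes and adherens junctions, stood at 0.29 (SE 0.15, adjusted p = 0.261) per the authors' deposited table. Pkp2, the plakophilin of heart and simple epithelia, was scarce (mean 1.39 log2 CPM) at -0.41 (SE 0.27) per the authors' deposited table. A 2-fold change lay outside the interval for 5 of the 6, Pkp2 being the exception.

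Per length of exon, the desmosome also led the members in level. In CPM per kb over both groups, Perp (709), Pkp1 (319), Dsp (314) and Jup (136) ranked 1 to 4 among the 66, followed by Dsg1a (103), Dsc1 (101) and Dsc2 (83.8). Dsg2 (1.92 CPM per kb) made up 0.450% of the summed level of the 8 desmosomal cadherins and Dsc2 19.7%. The riser was thus the scarcest cadherin of its class on this scale and the faller the third most abundant. With the longest transcript in place of all exons Dsg2 made up 0.591% and Dsg4 was the scarcest.

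**Figure D3:**
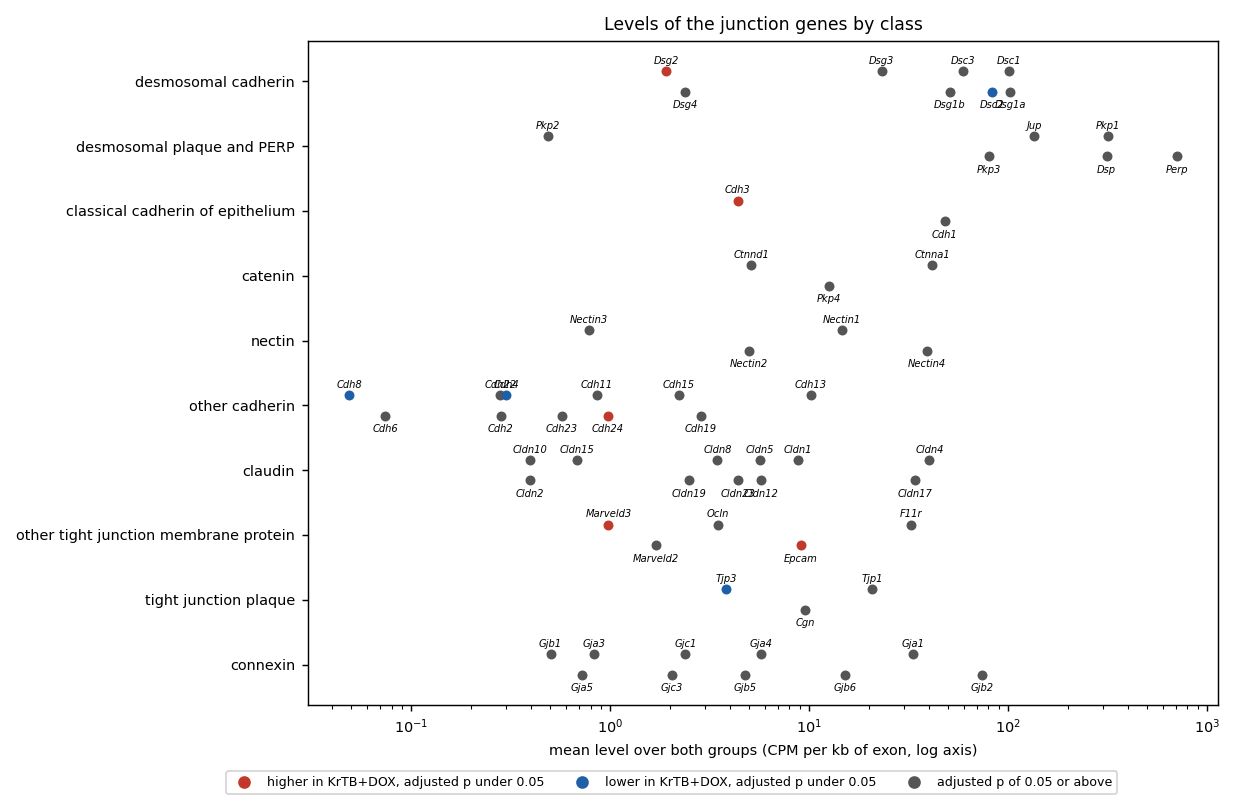
Mean level over both groups in CPM per kb of exon (horizontal log axis) of 63 of the 66 members, by class; red genes rose, blue genes fell and grey genes did not pass. Perp, Pkp1, Dsp and Jup lie farthest right, and Cdh8 farthest left.

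Of the classical cadherins of epithelium, P-cadherin rose while E-cadherin stood near 0. Cdh3, which marks basal keratinocytes and hair follicle matrix, had a log2 fold change of 0.83 (SE 0.14, 95% interval 0.52 to 1.14, adjusted p = 0.00892) per the authors' deposited table, or 1.78-fold, from near 14.5 to near 25.7 CPM. Cdh1, the main cadherin of adherens junctions in epithelia, was at -0.01 (SE 0.13, 95% interval -0.31 to 0.29, adjusted p = 0.979) per the authors' deposited table. Per kb Cdh1 (48.3 CPM per kb) was far more abundant than Cdh3 (4.40), and held 91.6% of their sum. The genes are adjacent and on the same strand of chromosome 8, Cdh3 at 106510891 to 106557297 and Cdh1 from 106603351 to 106670246, 46053 bp apart.

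Keratinocyte markers moved in both directions beside Cdh3, with most above 0: of 10 markers 2 rose and 1 fell, with a median of 0.39. Of these 10, 5 were higher and 1 lower at an unadjusted p under 0.05 by limma, and 7 lay above 0. Over all genes, 8.13% were called and 25.2% had such an unadjusted p. Trp63, a transcription factor of basal cells (log2 fold change 0.78, adjusted p = 0.0202) and the basal keratin Krt15 (0.54, adjusted p = 0.0452) rose and the cornified envelope gene Sprr3 fell by 2.19 (adjusted p = 0.0181) per the authors' deposited table. The keratins Krt14 (log2 fold change 0.80), Krt6a (0.79) and Krt5 (0.40) were higher only at the unadjusted p, per the authors' deposited table. Krt13 (-0.29) and Krt4 (-0.25) lay below 0 and did not pass, per the authors' deposited table. The part of these markers in the rise of Cdh3 was not tested.

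Catenins and nectins lay mostly above 0 without a call. Alpha-catenin Ctnna1 was at 0.09 (SE 0.07, 95% interval -0.07 to 0.25), the p120 family member Pkp4 at 0.43 (SE 0.12, adjusted p = 0.0532) and p120-catenin Ctnnd1 itself at 0.30 (SE 0.10, adjusted p = 0.0895) per the authors' deposited table. Ctnnd1 shares 61.2% of its exon length with Gm28635 on the same strand, and how reads from both were counted is not stated. Nectins, immunoglobulin-like adhesion proteins that recruit cadherins, were split, with Nectin2 at 0.28 (SE 0.09, adjusted p = 0.0842), Nectin1 at 0.14 (SE 0.11), Nectin4 at -0.01 (SE 0.13) and Nectin3 at -0.37 (SE 0.15, adjusted p = 0.164) per the authors' deposited table. None of the 7 passed by limma, while 4 did at an unadjusted p under 0.05, 3 of them above 0. The shares over all genes were 8.13% and 25.2% in turn. Nectin4 (39.3 CPM per kb) made up 65.8% of the summed nectin level.

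The other cadherins, mostly known from nerve, muscle and connective tissue, held 3 of the 9 called genes among 11 members. That is 27.3%, beside 8.13% of all genes and 6.52% of those averaging under 2 log2 CPM, and no test of the class was made. Cdh24, a type II cadherin on chromosome 14 (54631231 to 54641364), rose by 1.02 on the log2 scale (SE 0.16, adjusted p = 0.00661) per the authors' deposited table, or 2.03-fold, from near 2.39 to near 4.85 CPM. Cdh4, the R-cadherin of retina and brain, on chromosome 2 (179442431 to 179899373), fell by 1.54 (SE 0.22, adjusted p = 0.00427) per the authors' deposited table, which is 2.91-fold, from near 3.74 to near 1.28 CPM. Cdh8, a neural type II cadherin on chromosome 8 (99024471 to 99416471), fell by 2.92 (SE 0.45, 95% interval -3.92 to -1.91, adjusted p = 0.0066) per the authors' deposited table, or 7.55-fold, from near 1.04 to near 0.138 CPM. At such levels the size of a fold depends on how counts near 0 were treated. Cdh4, Cdh8 and Cdh24 also passed when tested against a 1.2-fold change, and no other member did. Of all 15540 genes, 222 did.

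Further cadherins of this class did not pass. Cdh6 (log2 fold change -1.02, adjusted p = 0.0791) and Cdh22 (1.17, adjusted p = 0.193) were scarce per the authors' deposited table. The most abundant was Cdh13, the T-cadherin without a cytoplasmic domain (10.2 CPM per kb), at -0.22 (SE 0.12, adjusted p = 0.284) per the authors' deposited table. Cdh23, of the hair cell tip link, stood at -0.51 (adjusted p = 0.198) and N-cadherin Cdh2 at -0.36 (adjusted p = 0.218) per the authors' deposited table.

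No claudin passed by limma among 11 members, while 3 (27.3%) did at an unadjusted p under 0.05. Of all genes 8.13% passed and 25.2% had such an unadjusted p, so the claudin share at the unadjusted p is near that of all genes. Cldn4, the most abundant per kb (40.4 CPM per kb, 37.9% of the claudin sum), had a log2 change of 0.59 (SE 0.17, 95% interval 0.20 to 0.98, adjusted p = 0.0661) per the authors' deposited table. Cldn8 stood at 0.53 (SE 0.18, adjusted p = 0.104) and the scarce Cldn10 at -0.93 (SE 0.32, adjusted p = 0.102) per the authors' deposited table. Cldn1, the claudin whose loss opens the skin barrier in mice, was at -0.07 with an interval of -0.62 to 0.47, and Cldn17 (34.0 CPM per kb) at 0.13 (SE 0.11) per the authors' deposited table.

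Among the other membrane proteins of tight junctions, Epcam and Marveld3 rose and the other 3 did not pass. Epcam, an adhesion protein of simple and progenitor epithelia that stabilises claudins, is on chromosome 17 (87635979 to 87651129) and had a log2 fold change of 0.75 (SE 0.19, 95% interval 0.33 to 1.18, adjusted p = 0.0402) per the authors' deposited table, or 1.69-fold, from near 15.4 to near 25.9 CPM. Marveld3, which joins occludin at tight junctions, is on chromosome 8 (109947914 to 109962203) and rose by 0.67 (SE 0.14, 95% interval 0.36 to 0.98, adjusted p = 0.0225) per the authors' deposited table, from near 2.56 to near 4.08 CPM. Its relatives occludin Ocln (-0.13, SE 0.20) and tricellulin Marveld2 (0.17, SE 0.14) did not pass per the authors' deposited table. The most abundant of the class, the adhesion molecule F11r (32.5 CPM per kb), was at 0.11 (SE 0.10, 95% interval -0.11 to 0.32) per the authors' deposited table.

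Beside Epcam, markers of simple epithelium and taste cells lay on both sides of 0. Of 10 such markers 8 had a value, of which 2 rose and 0 fell, with 4 below 0 and a median of 0.14. The 2 called are 25% of the 8, beside 8.13% of all genes. The risers were Krt18 (log2 fold change 2.09, adjusted p = 0.0023) and Krt8 (1.68, adjusted p = 0.0454) per the authors' deposited table, both at low means of 0.76 and -1.19 log2 CPM. The taste receptor gene Tas1r1 (-1.47, adjusted p = 0.0707) and the keratin Krt7 (-0.67, adjusted p = 0.443) had the lowest values and did not pass. Tas1r3 (-0.16), Plcb2 (-0.05), Kcnq1 (0.33) and the keratin Krt19 (0.86, SE 0.56, adjusted p = 0.369) were not called either, per the authors' deposited table. The list does not part simple epithelium from taste cells, so the called keratins are not assigned to either. The part of these markers in the rise of Epcam was not tested.

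Of the tight junction scaffolds, Tjp3 fell. Tjp3 (ZO-3), found in epithelia, is on chromosome 10 (81273207 to 81291581) and fell by 0.71 (SE 0.15, 95% interval -1.06 to -0.37, adjusted p = 0.0252) per the authors' deposited table, or 1.64-fold, from near 18.3 to near 11.2 CPM. Tjp1 (ZO-1), the most abundant of the class at 20.8 CPM per kb, was at -0.15 (SE 0.09, 95% interval -0.34 to 0.05) and cingulin Cgn at -0.17 (SE 0.12) per the authors' deposited table. Tjp3 shares 40 bp of exon with Apba3 on the opposite strand, whose log2 fold change was 0.08 (SE 0.12) per the authors' deposited table.

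No connexin passed among 12 members by limma, and 1 (8.33%) did at an unadjusted p under 0.05. Over all genes 8.13% passed and 25.2% had such an unadjusted p, and no test of the class was made. The 1 connexin was Gjb2 (connexin 26, mutated in human deafness and skin disease), at -0.37 (SE 0.14, 95% interval -0.68 to -0.06, adjusted p = 0.134) per the authors' deposited table. Gja1 (connexin 43), the main connexin of lower epidermal layers, was at -0.25 (SE 0.17, 95% interval -0.62 to 0.13) and Gjb6 (connexin 30) at -0.11 (SE 0.14) per the authors' deposited table. The class had a median of -0.20, with 8 of 12 below 0, beside -0.0060 over all genes. Gjb2 (74.1 CPM per kb) held 43.6% of the summed connexin level and Gja1 19.7%, but 32.1% and 38.3% with the longest transcript as length, so their order is not settled. Gja3 (-0.23), Gjb2 and Gjb6 are neighbours on chromosome 14, none of them called per the authors' deposited table.

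Several members are known from cells other than keratinocytes, and their values can be set beside markers of those cells. Cldn5 (0.07, SE 0.13), Gja4 (0.08, SE 0.18) and Gja5 (0.34, SE 0.18), of vessels, did not pass per the authors' deposited table. Of 10 endothelial markers 1 fell and 0 rose (median 0.0086). The faller was Cdh5 (-0.38, adjusted p = 0.0407), the cadherin left out of the members. At an unadjusted p under 0.05, 2 endothelial markers were higher and 1 lower. Beside this list and those that follow, 8.13% of all genes were called and 25.2% had an unadjusted p under 0.05. Cdh11 of fibroblasts was at 0.06 (SE 0.16) per the authors' deposited table, while 5 of 10 fibroblast markers fell and 0 rose (median -0.72). The fallers were the collagens Col3a1, Col1a2, Col1a1 and Col6a1, and Lum. Dpt (-0.61), Pdgfra (-0.44), Thy1 (-0.43), Dcn (-0.15) and Fbln1 (0.04) did not pass. At an unadjusted p under 0.05, 7 of the 10 were lower and 0 higher. Cdh15 of muscle precursors was at -0.33 (SE 0.13, adjusted p = 0.137) per the authors' deposited table. Of 10 skeletal muscle markers 1 fell and 0 rose (median -0.26), the faller being the precursor gene Pax7 and all 10 below 0. At an unadjusted p under 0.05, 4 of the 10 were lower and 0 higher. Cdh19 (0.00, SE 0.24), Cldn19 (-0.26, SE 0.25), Gjc3 (-0.23, SE 0.14) and Gjb1 (-0.48, SE 0.50), known from Schwann cells, did not pass per the authors' deposited table, and neither did any of 10 Schwann and nerve markers by limma, also none at an unadjusted p under 0.05 (median -0.28). The lists of smooth muscle (10 with a value), leukocytes (8 of 10), melanocytes (4 of 8) and salivary gland (2 of 10) held 0 called genes, with 1, 1, 0 and 1 at an unadjusted p under 0.05. Muscle genes were abundant in the samples, with a median mean of 11.5 log2 CPM over the skeletal muscle list and of 10.3 over the keratinocyte list, so samples labelled as epithelium also held muscle RNA. The part of other cell types in the changes of Cdh4, Cdh8 and Cdh24 was not tested.

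**Figure D4:**
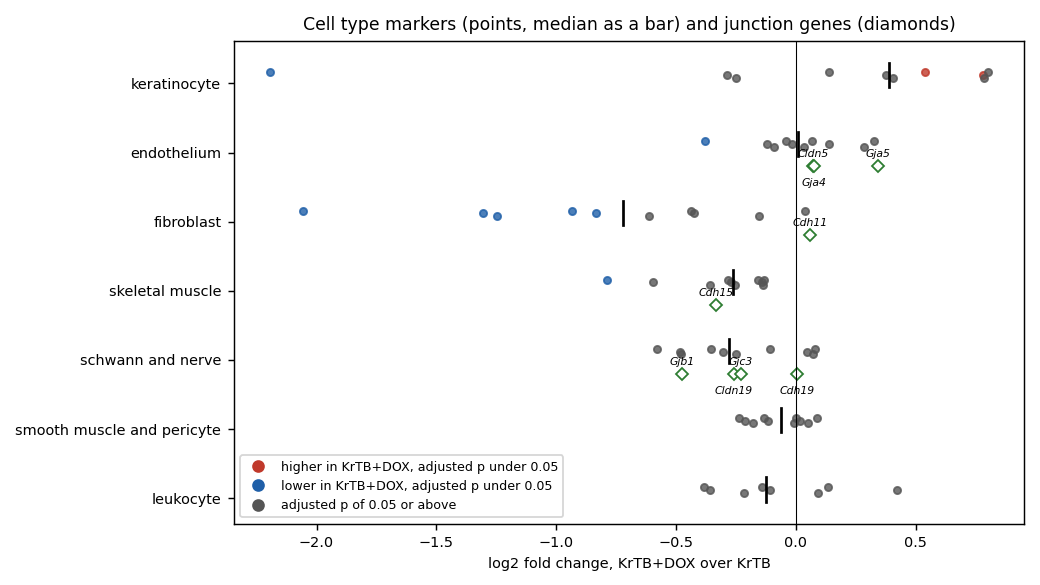
Log2 fold change (KrTB+DOX over KrTB) of cell type markers (points, those with a value), their median (black bar) and junction genes known from the same cell type (open diamonds). Fibroblast markers spread from -2.05 to 0.04 with a median of -0.72, and Cdh11 lies at 0.06.

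Other genes of these junctions, taken from a list of 50 partners and polarity genes of which 46 had a value, moved both ways as well. Of the 46, 5 rose and 4 fell (19.6% called, beside 8.13% of all genes), with a median of 0.046. Crb3, an apical polarity determinant, rose by 0.93 on the log2 scale (SE 0.16, adjusted p = 0.00948) per the authors' deposited table. Lsr (0.53, SE 0.12, adjusted p = 0.0306) and Ildr1 (1.17, SE 0.27, adjusted p = 0.0296), angulins that mark the corners where several cells meet, rose per the authors' deposited table, whereas tricellulin Marveld2, which they recruit, did not pass. The LIM protein Ajuba (0.58, SE 0.11, adjusted p = 0.0128) and the apical constriction gene Shroom3 (0.53, SE 0.11, adjusted p = 0.019) also rose per the authors' deposited table.

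The 4 that fell include polarity scaffolds. Pard3, which positions tight junctions, fell by 0.34 (SE 0.08, adjusted p = 0.0377), the PDZ scaffold Magi3 by 0.43 (SE 0.10, adjusted p = 0.0296) and the adhesion molecule Jam3 by 0.49 (SE 0.12, adjusted p = 0.0412) per the authors' deposited table. The neural alpha-catenin Ctnna2 fell by 1.86 (SE 0.46, adjusted p = 0.0387) from a mean of -1.46 log2 CPM per the authors' deposited table. Beta-catenin Ctnnb1, which binds the classical cadherins, was at 0.07 (SE 0.08, 95% interval -0.11 to 0.25) per the authors' deposited table. None of the 9 called partner genes passed when tested against a 1.2-fold change, which 222 of all 15540 genes did.

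Of 20 regulators of junction genes 18 had a value, with 1 higher and 1 lower and a median of 0.013. The 11.1% called is near the 8.13% of all genes. Trp63, the master factor of stratified epithelium, rose as given above. Zeb1, a repressor of E-cadherin, fell by 0.34 (SE 0.08, adjusted p = 0.0369) per the authors' deposited table, while Cdh1 itself was at -0.01. Zeb2 stood at -0.28 (SE 0.10, adjusted p = 0.101) and did not pass. Which cells the Zeb1 and Zeb2 values come from was not tested. The grainyhead-like factors Grhl1 (-0.25), Grhl2 (-0.07) and Grhl3 (-0.19), activators of junction genes, did not pass, and neither did the repressors Snai1 (0.77, SE 0.26) and Snai2 (0.04) or the activator Elf3 (0.66, adjusted p = 0.0671) per the authors' deposited table.

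**Figure D5:**
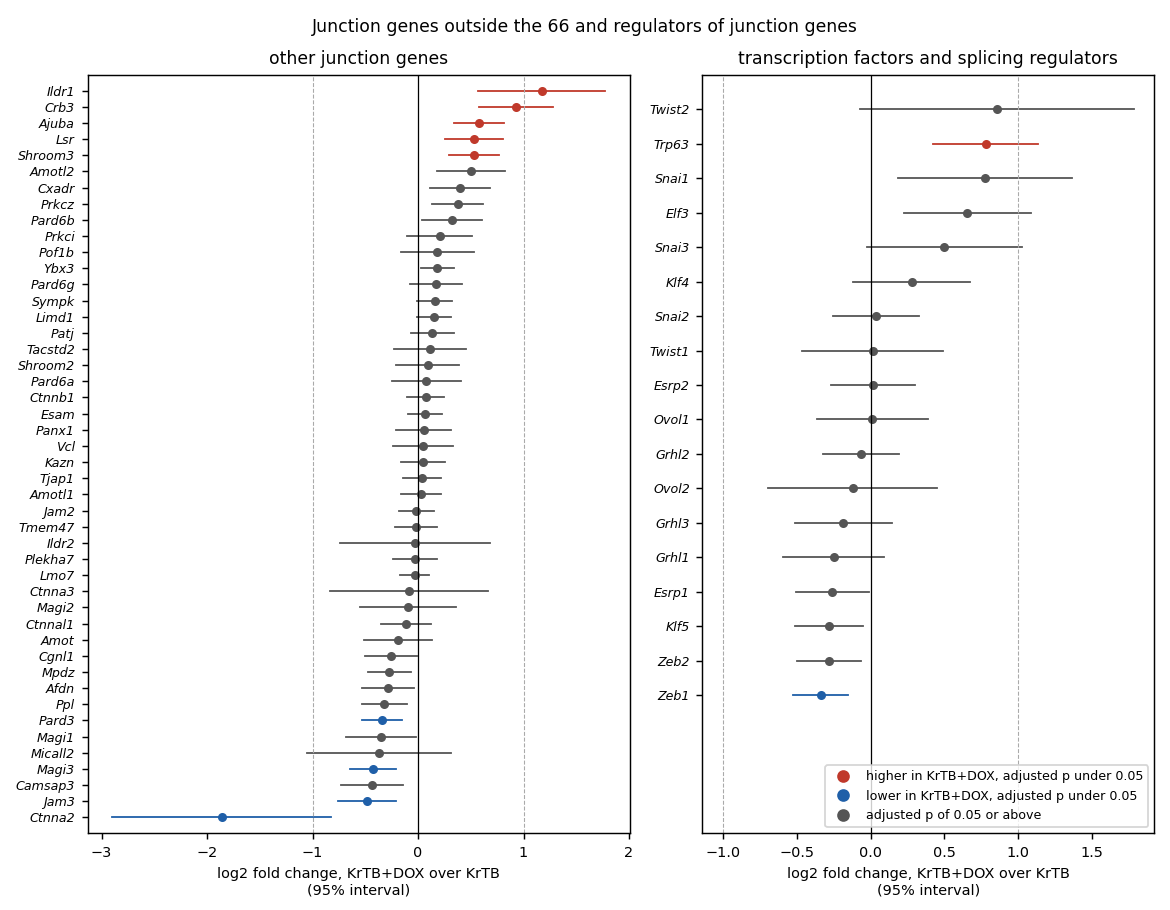
Log2 fold change (KrTB+DOX over KrTB, point) and 95% interval (line) of the 46 other junction genes (left) and the 18 regulators (right) with a value, ordered by fold change; dashed lines mark a 2-fold change. Ildr1, Crb3, Ajuba, Lsr and Shroom3 rose, Pard3, Magi3, Jam3 and Ctnna2 fell, and most intervals cross 0.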

How the data were processed

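RNA of tongue epithelium was made into stranded poly(A) libraries and sequenced as paired reads, per the labels' protocols. GRCm38, STAR 2.5.2b, HTSeq 0.11.2, cutadapt and bcl2fastq 2.20 are listed, with no roles, per the submitters' processing notes. The deposited columns, per the file headers, are limma's log2 fold change and mean on the log2 scale, a moderated t score and a B score, and p-values with their adjusted values. The mean is in log2 CPM, since 2 raised to it sums to 985251. Also not given in the sources used here were limma's version, the design formula, the filter on low values and the strand setting.

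The planned test was these deposited statistics. SE is the fold change over t, and intervals use the 9.76 total degrees of freedom that t and p give. Levels per kb use the union of exons of GENCODE M21. The alternatives, run in Python 3.11.15 with scipy 1.17.1 and statsmodels 0.14.6, are given in the closing section, and the functions were tested on simulated data. Members and lists were chosen with earlier results of these data known, and the cell types of the 9 members set beside markers after their values were seen. Named are Bmi1, all called members, the 3 highest means of each class, members near the threshold and called list genes. Other members are named where a class or neighbourhood is described, chosen after their values were seen. Partner symbols were matched through RefSeq synonyms where the table uses an older name. Some members are counted in the totals but not reported or plotted individually here.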

Additional observations from a re-analysis of the deposited data

How the results depend on the processing

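Tested against a 1.2-fold change, 1 member was higher (Cdh24) and 2 were lower (Cdh4 and Cdh8) by limma's statistics, beside 222 of all 15540 genes called. Of the 46 partner genes 0 passed, while 6 had an unadjusted p under 0.05 in that test. No share of all genes at that unadjusted p is given here. Cdh3 then had an adjusted p of 0.0675, and the other 5 called members had adjusted p from 0.215 (Tjp3) to 0.483 (Dsc2). At an adjusted p under 0.01 the counts were 2 higher (Cdh3 and Cdh24), 2 lower (Cdh4 and Cdh8) and 1 partner gene, beside 303 of all 15540 genes. At an adjusted p under 0.10 the counts were 9 higher, 5 lower and 14 partner genes, beside 2347 of all 15540 genes. Under the Benjamini-Yekutieli adjustment, 0 members were higher, 1 was lower (Cdh4, adjusted p = 0.0437) and 0 partner genes passed, beside 147 of all 15540 genes. At an unadjusted p under 0.05, 11 members were higher and 9 lower. In either direction 20 of the 46 partner genes stood apart, beside 3923 of all 15540 genes. Over genes averaging at least 1 log2 CPM, with fold changes centred on the median, and with the trend on GC content and length removed, each count stayed within 1.5 times its value. The calls over all genes were 1185, 1284 and 1154 in turn, beside 1263 in the main test. With that trend removed, Dsc2 lost its call (adjusted p = 0.0604), as did Jam3 (0.0563), Krt15 (0.0509) and Krt8 (0.0504). Cdh8, Ildr1, Ctnna2, Krt18 and Krt8 are not tested above 1 log2 CPM. Over 95 genes followed through these settings (the members, the called list genes and 7 uncalled ones), none changed sign while called. With the longest transcript as length, an alternative chosen after seeing the data, Cdh13 made up 72.0% in place of 54.7% of the summed level of the other cadherins. Leaving out libraries and count models were not run, because values per library were not analysed here. No paired analysis was possible because the values come from 1 table of the comparison and replicate numbers only name libraries. Precision was limited at low levels, with a median SE of 0.32 for members averaging under 2 log2 CPM and of 0.16 for those from 7 log2 CPM upward.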
